A study of Mus musculus with 89 samples.

Results

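Exon use in 6 mouse genes of neuronal adhesion was followed: the neurexins Nrxn2 and Nrxn3, the immunoglobulin-family molecules Ncam1, Nrcam and Alcam, and the receptor phosphatase Ptprf. They were chosen by name, with earlier results of these data known. All of their exon skipping events in 2 deposited tables are accounted for. An event is an exon together with its 2 neighbouring exons, counted by reads that contain the exon and by reads that join its neighbours directly. The genes hold 45 of the 27900 events in the HSV table and 28 of the 5608 events in the dCas9-SET2 table.

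The RNA came from the nucleus accumbens of wild type C57BL/6 mice aged 8 weeks. For the HSV table, the labels name the herpes simplex virus vectors HSV-Set2, HSV-R195G and HSV-GFP, with 3 RNA libraries each. Set2 is an H3K36 methyltransferase, and what R195G stands for is not given in the labels. The table itself holds 5 libraries in 2 unnamed sets, so they are called the 3-library set and the 2-library set, and no vector was assigned to either. For the dCas9-SET2 table, all samples are labelled dCas9-SET2, with the guide sgRNA-SRSF11 or the guide sgRNA-NT, with 4 sample names per guide and 4 runs per name. That table holds 2 unnamed sets of 16 runs, called the second and the first run set. Nothing in the labels says how many animals stand behind a library or which cells the vectors entered, so p-values speak of libraries alone. The other 48 samples of the series were not analysed here.

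Neurexins are presynaptic membrane proteins that bind postsynaptic partners such as neuroligins, LRRTM proteins and, through cerebellins, glutamate delta receptors. Each neurexin gene carries several alternatively spliced sites, and the exon at splice site 4 governs which partners bind. Ptprf, also called LAR, belongs to the same class of presynaptic organisers, with immunoglobulin and fibronectin domains outside the cell and phosphatase domains inside. Ncam1, Nrcam and Alcam are cell surface proteins that bind themselves or other proteins, and in all of them alternative exons change the extracellular or the cytoplasmic part. H3K36me3, the mark that Set2 writes, lies over the bodies of transcribed genes and has been linked to exon choice.

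The 3-library set had 8341849, 7455234 and 7428974 reads over all events and the 2-library set 8638249 and 8366275. Runs of the dCas9-SET2 table had 56946 to 84870 reads in the second set and 79799 to 106251 in the first. The 2 sets of the HSV table also differed in cell type markers, measured as depth-scaled reads (CPM) at the deepest event of each gene. Of 9 measured striatal neuron markers of 12, 8 were lower in the 3-library set and 0 higher by limma, with summed CPM of 3236 to 3471 in that set and 7740 to 9640 in the 2-library set. All 9 measured interferon response genes of 13 were higher, at 2863 to 3260 CPM in the 3-library set and 77.5 to 173 CPM in the 2-library set. Of 7 measured oligodendrocyte markers of 10, 5 were higher (8020 to 10450 CPM in the 3-library set, 6147 to 8300 CPM in the 2-library set). Of 8 measured microglia markers of 10, 5 were higher (1967 to 2098 CPM in the 3-library set, 857 to 1891 CPM in the 2-library set). Of 6 measured astrocyte markers of 9, 2 were higher (3852 to 3895 CPM in the 3-library set, 3632 to 3797 CPM in the 2-library set). Pan-neuronal genes were split, 3 higher and 2 lower of 5 measured. No measured marker list was at 0, but 3 genes of the striatal list had no event with enough reads. These markers move with every difference between the 2 sets that follows, and their part in it was not tested.

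Of the 45 listed events, 28 had enough reads to be tested, the minimum being on average 20 reads in a library and, over the libraries, 10 of the rarer of both forms. They cover 24 distinct exons in all 6 genes. Inclusion is given as the inclusion level (PSI), the length-normalised share of transcripts that hold the exon, from 0 to 1. The test was limma on the logit of inclusion with weights from the reads, adjusted with Benjamini-Hochberg over 7754 events and called at 0.05. Its p-values rest on read counts and 1 spread shared by all tested events, not on the spread of each event's own libraries. The genes were chosen with earlier results of these data known, so comparisons with a background here and below only describe them. The test called 5 of the 28 member events (17.9%), in 5 genes, against a background of 3.69% of all events tested. Of these, 3 were more included in the 3-library set (background 1.69%) and 2 less (background 2.00%). The called exons were those of 39 nt in Alcam, 801 nt in Ncam1, 27 nt in Nrxn3, 33 nt in Ptprf and 24 nt in Nrxn2. With the spread fitted as a trend on the weights, an alternative chosen after seeing the data, 2 were called (background 2.14%), those of Alcam and Ncam1. Without weights from the reads, limma called 0 of the 5 (adjusted p 0.395 to 0.545) and 0 of all events, with 4 member events at an unadjusted p below 0.05.

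**Figure D1:**
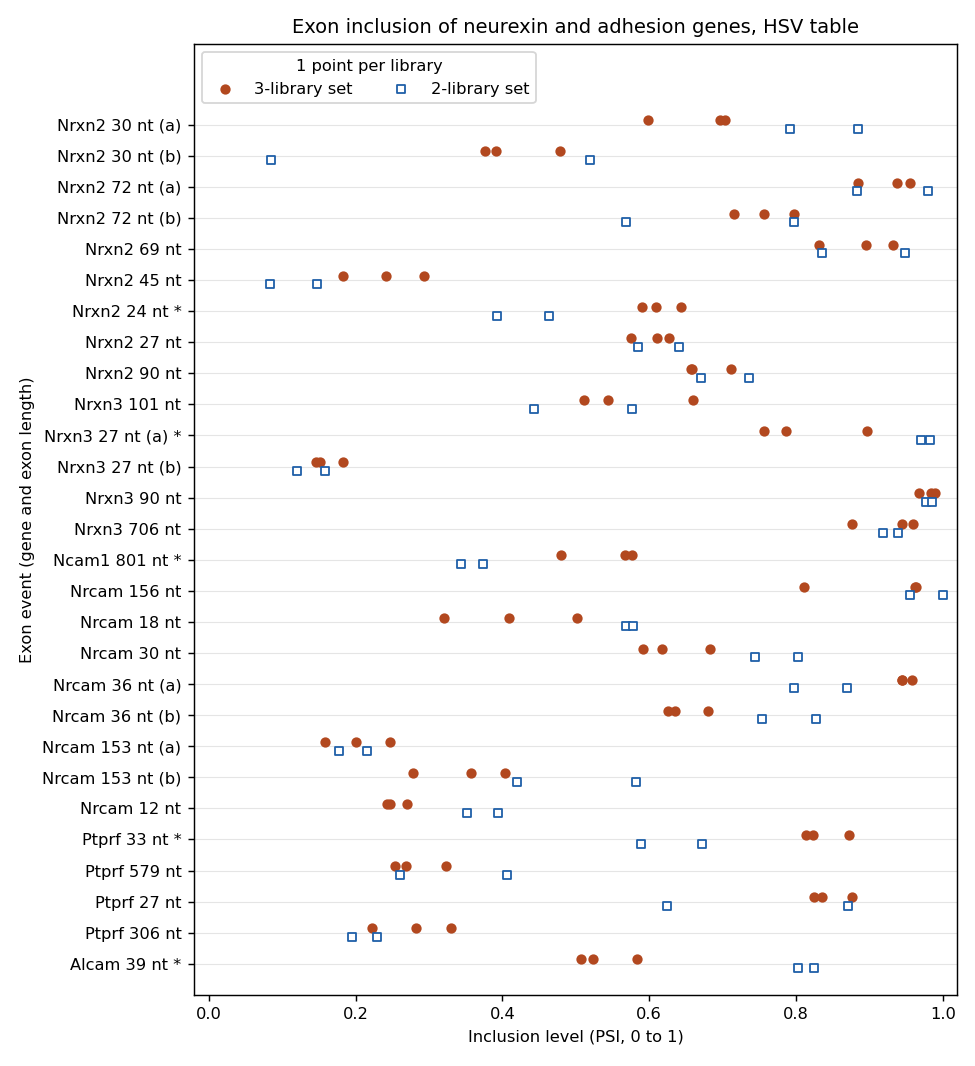
Inclusion level (PSI, x axis) of the 28 tested member events (y axis, gene and exon length), with 1 filled point per library of the 3-library set and 1 open square per library of the 2-library set. An asterisk marks the 5 events with an adjusted p below 0.05, and (a) and (b) are 2 exons of the same length or the same exon with other neighbours. The libraries of the 2 sets do not overlap in 13 of the 28 events, among them all 5 called ones.

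The libraries of both sets did not overlap in 13 of the 28 tested events (46.4%), against 27.6% of all tested events. Some member events share skipping reads, so the 28 are not all independent. The median absolute difference in inclusion was 0.106 over the tested member events and 0.031 over all tested events. An exon with inclusion near 0 or 1 has less room to differ, and 18 of the 28 member events had a mean inclusion of 0.2 to 0.8. The inclusion levels of all tested events were not matched to those of the members. There was no common direction, with 12 member events higher and 16 lower in the 3-library set and a median difference of -0.0039, against -0.0013 over all events. The authors' deposited table gave an FDR below 0.05 to 11 of the 28 events, 4 higher and 7 lower in the 3-library set, against 12.6% of all tested events. All 5 events that limma called are among those 11. Depth was ordinary for the table, with a median of 145 reads per library over the tested member events and 129 over all.

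The tested exons mostly kept the reading frame, and their lengths varied widely. Of the 24 distinct exons, 22 (91.7%) had a length divisible by 3, against 52.2% of 7075 distinct tested exons in the table. A length of at most 27 nt was found in 7 of the 24 (29.2%), compared with 5.33% over the table. Another 7 of the 24 had 100 nt or more. The 2 exons that shift the frame were those of 101 nt and 706 nt in Nrxn3.

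The remaining 17 listed events were not tested. Of these, 4 had fewer than 20 reads per library and the other 13 too few reads of the rarer form. A mean inclusion above 0.95 was seen in 13 of the 17. Their lowest FDR in the authors' deposited table was 0.0633. Among them are the exons of 15 nt and 48 nt in Ncam1, the lengths of exons known from the muscle-specific domain of that protein.

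In Nrxn2, 1 of 9 tested events was called, the 24-nt exon on chromosome 19. Its inclusion was 0.590, 0.643 and 0.609 in the 3-library set, against 0.393 and 0.463 in the 2-library set. Every library of the 3-library set lay above both others. The logit difference was 0.74 ± 0.215 (SE), with an adjusted p of 0.0203 by limma. This call was lost with the spread as a trend on the weights (adjusted p 0.155 by limma) and without replicate 1 or 2 of the 2-library set (0.416 and 0.0585) or replicate 2 of the 3-library set (0.0622).

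A longer form of the same exon, 45 nt with the same start, shares its skipping reads with the 24-nt form. Its inclusion was 0.183, 0.242 and 0.293 in the 3-library set, against 0.083 and 0.147 in the 2-library set. The sets did not overlap and the direction was that of the 24-nt form. For the 45-nt form, limma gave an adjusted p of 0.284, and the authors' deposited table an FDR of 0.0184. Being measured against the same skipping reads, the 2 forms are not independent.

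The 90-nt exon of Nrxn2, the length of the exon at neurexin splice site 4, had an inclusion of 0.657, 0.659 and 0.711 in the 3-library set. The 2-library set had 0.670 and 0.736. The ranges overlapped, and the logit difference was -0.12 ± 0.118 (SE), with an adjusted p of 0.699 by limma, on the deepest coverage of any Nrxn2 event. In Nrxn3, the 90-nt exon was included almost always, at 0.984, 0.968 and 0.990 in the 3-library set, against 0.977 and 0.985 in the 2-library set (adjusted p 0.995 by limma). Thus the 2 neurexins differed in their use of the 90-nt exon within each library, while neither showed a call between the sets.

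Further Nrxn2 exons were alternative without a call. The 30-nt exon, with the 72-nt exon as its downstream neighbour, had 0.697, 0.599 and 0.704 in the 3-library set, against 0.885 and 0.792 in the 2-library set. These sets did not overlap; limma gave an adjusted p of 0.405, and the authors' deposited table an FDR of 0.0404. With a more distant downstream neighbour the same exon had 0.479, 0.376 and 0.391 in the 3-library set, against 0.085 and 0.520 in the 2-library set, an overlap that leaves no direction. The 72-nt exon spliced to the 30-nt exon had 0.884, 0.955 and 0.938 in the 3-library set, against 0.980 and 0.883 in the 2-library set. Joined to an exon further upstream, it had 0.757, 0.798 and 0.716 in the 3-library set, against 0.568 and 0.797 in the 2-library set. A 69-nt form of it, which begins 3 nt later, had 0.831, 0.932 and 0.895 in the 3-library set, against 0.949 and 0.836 in the 2-library set. The 27-nt exon had 0.627, 0.611 and 0.575 in the 3-library set, against 0.641 and 0.585 in the 2-library set. All of the last 4 events overlapped between sets. The 69-nt form shares its skipping reads with the 72-nt exon spliced to the 30-nt exon. The 72-nt exon joined further upstream shares them with the 30-nt exon of the more distant neighbour. The events within each pair are therefore not independent.

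In Nrxn3, on chromosome 12, 1 of 5 tested events was called, the first of 2 exons of 27 nt. Its inclusion was 0.786, 0.897 and 0.757 in the 3-library set, against 0.970 and 0.983 in the 2-library set. Skipping was thus rare in both libraries of the 2-library set and more frequent in all 3 others. The logit difference was -2.21 ± 0.617 (SE), with an adjusted p of 0.0134 by limma. The call was lost with the spread as a trend on the weights (adjusted p 0.0549 by limma) and without replicate 1 or 2 of the 2-library set (0.174 and 0.20).

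The second 27-nt exon of Nrxn3 was mostly skipped, at 0.146, 0.183 and 0.151 in the 3-library set, against 0.120 and 0.158 in the 2-library set (adjusted p 0.830 by limma). The 101-nt exon had 0.511, 0.544 and 0.660 in the 3-library set, against 0.577 and 0.443 in the 2-library set. The 706-nt exon had 0.877, 0.945 and 0.959 in the 3-library set, against 0.939 and 0.919 in the 2-library set. In these 3 events the sets overlapped.

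Ptprf, on chromosome 4, had 4 tested events, of which the 33-nt exon was called. In rat LAR, a short alternative insert is known next to the membrane on the cytoplasmic side. Inclusion was 0.823, 0.872 and 0.814 in the 3-library set, against 0.672 and 0.589 in the 2-library set. No library of one set reached the range of the other. The logit difference was 1.08 ± 0.305 (SE), with an adjusted p of 0.0151 by limma. It was not called with the spread as a trend on the weights (adjusted p 0.0633 by limma), without replicate 2 of the 2-library set (0.299) or without replicate 2 of the 3-library set (0.0918).

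The 27-nt exon of Ptprf had 0.836, 0.877 and 0.825 in the 3-library set, against 0.871 and 0.624 in the 2-library set. One library of the 2-library set lay far below the other 4, and the adjusted p was 0.325 by limma. A 579-nt exon had 0.254, 0.323 and 0.269 in the 3-library set, against 0.261 and 0.407 in the 2-library set, and a 306-nt exon 0.282, 0.222 and 0.330 in the 3-library set, against 0.195 and 0.229 in the 2-library set. Both long exons overlapped between sets.

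Ncam1 lies on chromosome 9, and its single tested event was the 801-nt exon. An exon of that length is known to encode the cytoplasmic insert of NCAM-180, the long transmembrane form found mainly in neurons, whereas NCAM-140 lacks it. Inclusion was 0.576, 0.567 and 0.480 in the 3-library set, against 0.373 and 0.343 in the 2-library set. All 3 libraries of the 3-library set lay above both libraries of the other. The logit difference was 0.74 ± 0.171 (SE), with an adjusted p of 0.00107 by limma. The call held with the spread as a trend on the weights (adjusted p 0.0396 by limma), and was lost without replicate 2 of the 2-library set (0.0651).

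Behind these levels stood 715, 605 and 557 inclusion reads in the 3-library set, against 249 and 222 in the 2-library set. Skipping reads numbered 83, 73 and 95 in the 3-library set, against 66 and 67 in the 2-library set. The inclusion reads thus differed far more between sets than the skipping reads did.

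Alcam, on chromosome 16, had 1 event, a 39-nt exon with the smallest adjusted p of the members. In human cells, a form of ALCAM without a short exon near the membrane is shed from the surface more readily. Inclusion was 0.524, 0.507 and 0.583 in the 3-library set, against 0.803 and 0.824 in the 2-library set. About equal amounts of both forms in the 3-library set stood against a large majority of the including form in the other. The logit difference was -1.32 ± 0.157 (SE), with an adjusted p of 1.37e-14 by limma. This was the 1 member event called in each of the 5 fits that left out a library (adjusted p 3.86e-14 to 3.44e-08 by limma), and with the spread as a trend on the weights its adjusted p was 3.65e-08. Without weights the call was lost (adjusted p 0.401 by limma).

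Inclusion reads of Alcam were 211, 179 and 206 in the 3-library set, against 412 and 420 in the 2-library set. Skipping reads ran the other way, with 152, 138 and 117 in the 3-library set, against 80 and 71 in the 2-library set. As CPM over all events, the skipping reads came to 18.2, 18.5 and 15.7 in the 3-library set, against 9.26 and 8.49 in the 2-library set.

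Nrcam, of the L1 family and on chromosome 12, had 8 tested events and 0 calls by limma, with 5 events at an unadjusted p below 0.05. The authors' deposited table gave 4 of the 8 an FDR below 0.05, against 12.6% of all tested events. Inclusion was lower in the 3-library set in 6 of the 8, and the sets did not overlap in 6. Each of these counts, and that of the 5 events, holds 1 event of the 36-nt exon and 1 of the 153-nt exon that share their skipping reads. Those 2 events are not independent. Short exons of the gene came closest to the threshold.

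The 30-nt exon of Nrcam had 0.591, 0.618 and 0.683 in the 3-library set, against 0.803 and 0.744 in the 2-library set. All 3 libraries lay below both of the others, with a logit difference of -0.72 ± 0.233 (SE) and an adjusted p of 0.0554 by limma. It was called with a read minimum of 10 and 5 (adjusted p 0.0328 by limma) and without replicate 3 of the 3-library set (0.0383), and the authors' deposited table gave it an FDR of 0.0053.

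The 12-nt exon had 0.243, 0.247 and 0.270 in the 3-library set, against 0.394 and 0.352 in the 2-library set (adjusted p 0.0868 by limma, FDR 0.0170 in the authors' deposited table). An exon of this length is known in the cytoplasmic part of L1-family proteins, where in L1 it belongs to a signal for endocytosis and is used in neurons. For the 18-nt exon, inclusion was 0.409, 0.321 and 0.502 in the 3-library set, against 0.569 and 0.578 in the 2-library set (adjusted p 0.103 by limma). Without replicate 3 of the 3-library set, the 18-nt exon was called (adjusted p 0.0340 by limma). Neither exon overlapped between sets, and in both the 3-library set had the lower values.

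The 36-nt and the 153-nt exon of Nrcam are neighbours, and each was listed with 2 pairs of flanking exons. With the downstream neighbour beyond the 153-nt exon, the 36-nt exon had 0.635, 0.680 and 0.625 in the 3-library set, against 0.827 and 0.754 in the 2-library set (adjusted p 0.149 by limma, FDR 0.0133 in the authors' deposited table). Followed by the 153-nt exon, it had 0.944, 0.958 and 0.944 in the 3-library set, against 0.797 and 0.870 in the 2-library set (adjusted p 0.605 by limma). The event with the 153-nt neighbour held 1, 1 and 1 skipping reads in the 3-library set, against 7 and 3 in the 2-library set. Its logit difference was 1.08 ± 0.844 (SE). The same exon had opposite signs with its 2 neighbours, without a call by limma in either, and so few skipping reads do not settle a direction.

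Preceded by the 36-nt exon, the 153-nt exon had 0.247, 0.20 and 0.158 in the 3-library set, against 0.216 and 0.178 in the 2-library set (adjusted p 0.965 by limma). Preceded by the exon before that, it had 0.403, 0.357 and 0.278 in the 3-library set, against 0.582 and 0.420 in the 2-library set (adjusted p 0.361 by limma). This last event shares its skipping reads with the 36-nt exon of the more distant downstream neighbour and is not independent of it. A 156-nt exon had 0.962, 0.963 and 0.811 in the 3-library set, against 1.00 and 0.956 in the 2-library set. For it, limma gave an adjusted p of 0.50 and the authors' deposited table an FDR of 0.0288. Its logit difference of -1.23 became -0.0424 without replicate 3 of the 3-library set. Only the second of these 3 events did not overlap between sets.

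**Figure D2:**
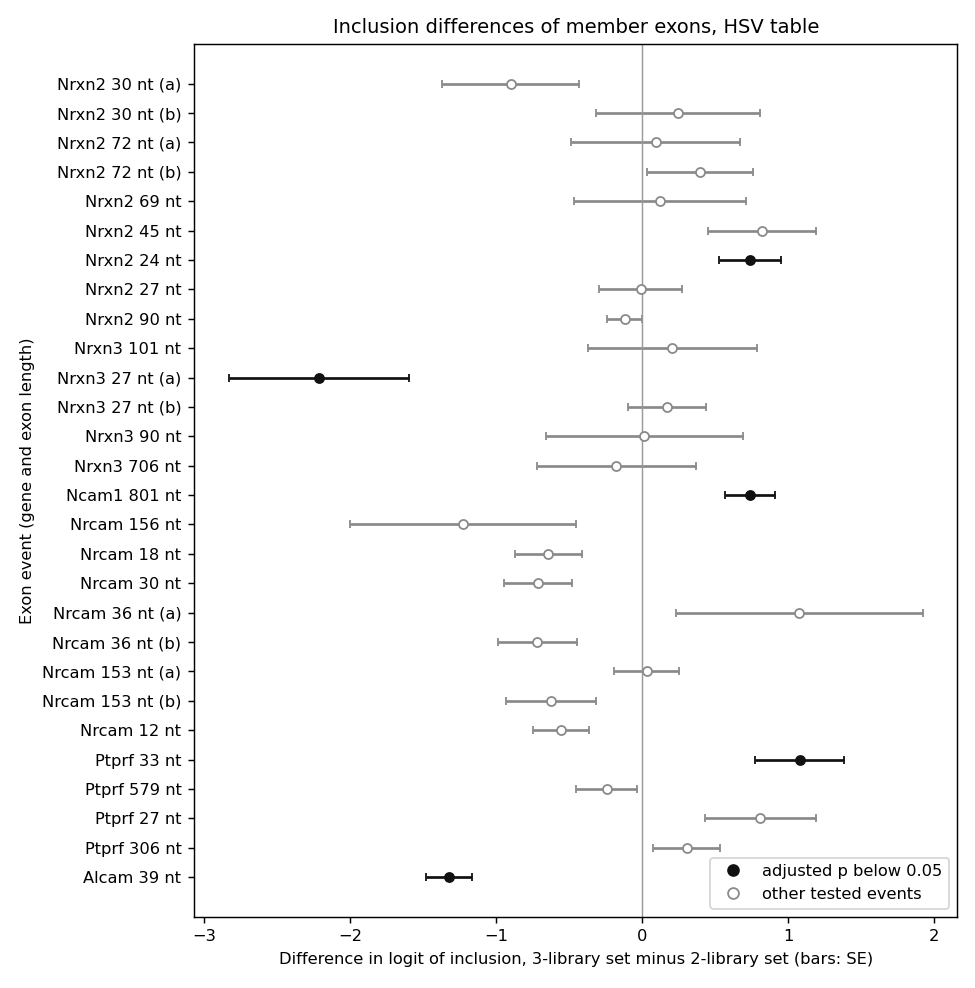
Difference in the logit of inclusion between the 3-library and the 2-library set (x axis, natural log odds) for the 28 tested member events (y axis), with bars for 1 SE from limma. Filled points are the 5 called events, which lie on both sides of 0, from -2.21 for the first 27-nt exon of Nrxn3 to 1.08 for the 33-nt exon of Ptprf.

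Coverage of the genes was compared as the summed reads at the deepest event of each gene, scaled to CPM and tested with limma over 8140 genes. Coverage was called for 4 of the 6 genes, 3 higher in the 3-library set (background 13.2%) and 1 lower (background 9.53%), against a background of 22.8% of all genes in either direction. In bulk tissue, fewer cells of a type and less RNA per cell cannot be told apart. The coverage is not an expression level of the whole gene, and where the deepest event holds the alternative exon itself it moves with inclusion.

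Ncam1 had 194.7, 183 and 179 CPM in the 3-library set, against 77.8 and 71.4 CPM in the 2-library set. Every library of the 3-library set lay far above both of the others. The log2 difference was 1.31 ± 0.11 (SE), with an adjusted p of 2.86e-06 by limma. Reads in the body of the 801-nt exon count toward it, and with inclusion reads divided by length the log2 ratio of the set means was 0.90.

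Nrxn2 had 217, 287 and 243 CPM in the 3-library set, against 163 and 152 CPM in the 2-library set. The sets did not overlap, with a log2 difference of 0.65 ± 0.12 (SE) and an adjusted p of 0.00162 by limma. For Nrxn3 the values were 139, 137 and 139 CPM in the 3-library set, against 118 and 80.2 CPM in the 2-library set. Its log2 difference of 0.51 ± 0.147 (SE) had an adjusted p of 0.0253 by limma. That call was lost without replicate 2 of the 2-library set (0.222) and without replicate 1, 2 or 3 of the 3-library set (0.0751, 0.0699 and 0.0733).

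Alcam was the 1 member with lower coverage, at 88.6, 85.5 and 88.7 CPM in the 3-library set, against 121 and 121 CPM in the 2-library set. Libraries within a set differed by little beside the gap between sets, with a log2 difference of -0.47 ± 0.115 (SE) and an adjusted p of 0.0098 by limma. With length-normalised inclusion reads the log2 ratio of the means was -0.38. Nrcam and Ptprf were not called, with log2 differences of 0.16 ± 0.16 and 0.20 ± 0.171 (SE) and adjusted p of 0.525 and 0.446 by limma. When all listed events of a gene were summed, Nrcam was called too (log2 difference 0.44, adjusted p 0.0048 by limma).

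**Figure D3:**
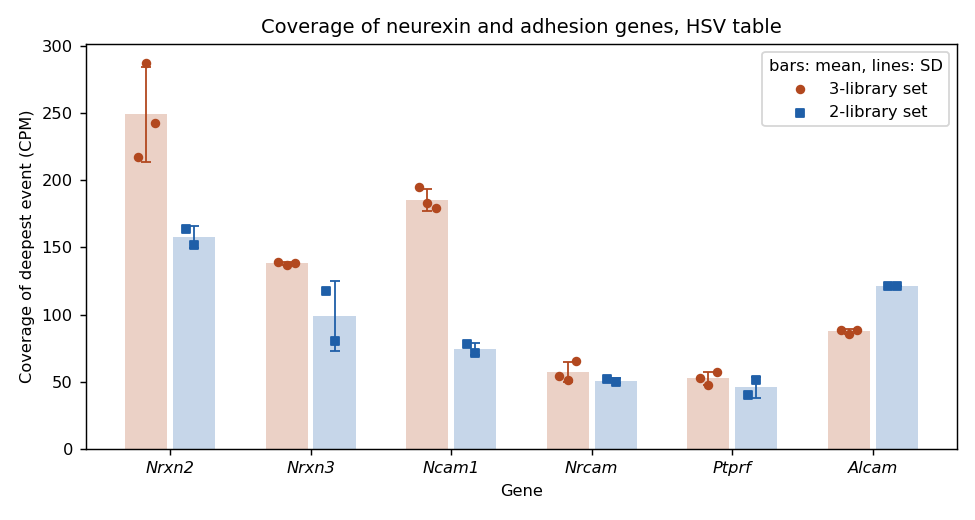
Coverage of the deepest event (y axis, CPM) of each member gene (x axis), with points for libraries, bars for set means and lines for the SD, the 3-library set left of the 2-library set in each pair. Ncam1, Nrxn2 and Nrxn3 lie higher and Alcam lower in the 3-library set, and the sets of Nrcam and Ptprf lie close together.

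Beside the members, a list of 98 other genes of neuronal and synaptic adhesion, chosen with earlier results known, was read in the same fit. It had 37 genes with a tested event, and 4 of them (10.8%) had a called event, 1 higher and 3 lower, against 5.83% of 4171 tested genes. Among these called genes, Epb41l1 and Cask act inside the cell and are not adhesion molecules themselves. A gene with more tested events has more occasions for a call. Counted by events, 5 of the 102 tested events of the list were called, against 3.69% of all tested events. The clearest was the 84-nt exon of Cadm1, a synaptic immunoglobulin-family adhesion molecule, with 0.511, 0.477 and 0.405 in the 3-library set, against 0.794 and 0.743 in the 2-library set. Its adjusted p was 2.16e-06 by limma and it stayed called without each library in turn. A second event with the same Cadm1 exon had 0.198, 0.221 and 0.228 in the 3-library set, against 0.326 and 0.350 in the 2-library set, in the same direction (adjusted p 0.0201 by limma). That call was lost with the spread as a trend on the weights (0.160 by limma), without replicate 1 or 2 of the 2-library set (0.0938 and 0.273) and without replicate 1 of the 3-library set (0.123).

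The 84-nt exon of Epb41l1, a protein of the membrane skeleton, had 0.812, 0.774 and 0.871 in the 3-library set, against 0.975 and 0.930 in the 2-library set (adjusted p 0.00014 by limma). The 69-nt exon of Cask, a scaffold that binds neurexin tails, had 0.246, 0.281 and 0.281 in the 3-library set, against 0.503 and 0.554 in the 2-library set (adjusted p 0.0067 by limma). That call held with the spread as a trend on the weights (0.0412) and was lost in 3 of the 5 fits without a library (highest adjusted p 0.0791 by limma). Cadm3 was the 1 gene with a higher event, a 102-nt exon with 0.175, 0.193 and 0.195 in the 3-library set, against 0.101 and 0.120 in the 2-library set (adjusted p 0.0021 by limma). Its call was lost with the trend on the weights (0.0766) and without replicate 1 of the 2-library set (0.161).

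In the dCas9-SET2 table, the 6 genes had 28 events, 26 distinct exons, of which 24 kept the reading frame. All lay inside their gene on GRCm38, the assembly that mm10 names. The runs of a set are not independent replicates, so no test was made here, and inclusion was taken from the pooled reads of a set with a 95% exact binomial interval that covers counting error only. By the authors' deposited table, an adjusted p below 0.05 was found in 1 of the 28 events (3.57%), against a background of 4.96% of events, which is no more than the table at large.

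That event was the 153-nt exon of Nrcam, at chr12:44584835-44584987 on the plus strand. Its pooled inclusion was 0.399 (interval 0.331 to 0.473) in the second run set, against 0.337 (0.280 to 0.399) in the first. The intervals overlapped, and the authors' deposited table gave an adjusted p of 0.0462 and a dPSI of 0.115, which was larger than the pooled difference of 0.0619. In the HSV table the same exon with the same neighbours had an adjusted p of 0.965 by limma.

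The next event was the 30-nt exon of Ncam1 at chr9:49550540-49550569 on the minus strand, the length of the VASE exon in the fourth immunoglobulin domain. It was included at 0.421 (0.350 to 0.495) in the second run set and 0.340 (0.287 to 0.396) in the first, with an adjusted p of 0.0619 in the authors' deposited table. This exon was not among the events of Ncam1 in the HSV table.

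No member event had intervals that did not overlap between the run sets. Pooled inclusion was higher in the second run set in 19 events and lower in 9, and the median absolute difference was 0.0275, against 0.0509 over all events of the table. In 7 events the difference had the opposite sign by the mean or the median over runs. The authors' dPSI and the pooled difference had the same sign in 19 of the 28 events. The lowest difference, -0.249, belonged to the 101-nt exon of Nrxn3, with 5 inclusion and 11 skipping reads in the second run set and 20 and 13 in the first. The 18-nt exon of Ptprf came next, at 0.213 in the second run set (8 and 25 reads) and 0.431 in the first (17 and 19 reads). Both have wide intervals, and the authors' deposited table gave adjusted p of 0.274 and 0.202.

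Deeper events showed small differences. The 801-nt exon of Ncam1 was included at 0.284 (0.258 to 0.312) in the second run set and 0.265 (0.242 to 0.290) in the first. For the 90-nt exon of Nrxn2, inclusion was 0.487 (0.441 to 0.534) in the second run set and 0.495 (0.456 to 0.535) in the first. The 90-nt exon of Nrxn3 had 0.963 (0.925 to 0.985) in the second run set and 0.922 (0.882 to 0.953) in the first. As in the HSV table, the level lay close to 1 in Nrxn3 and well below that in Nrxn2.

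**Figure D4:**
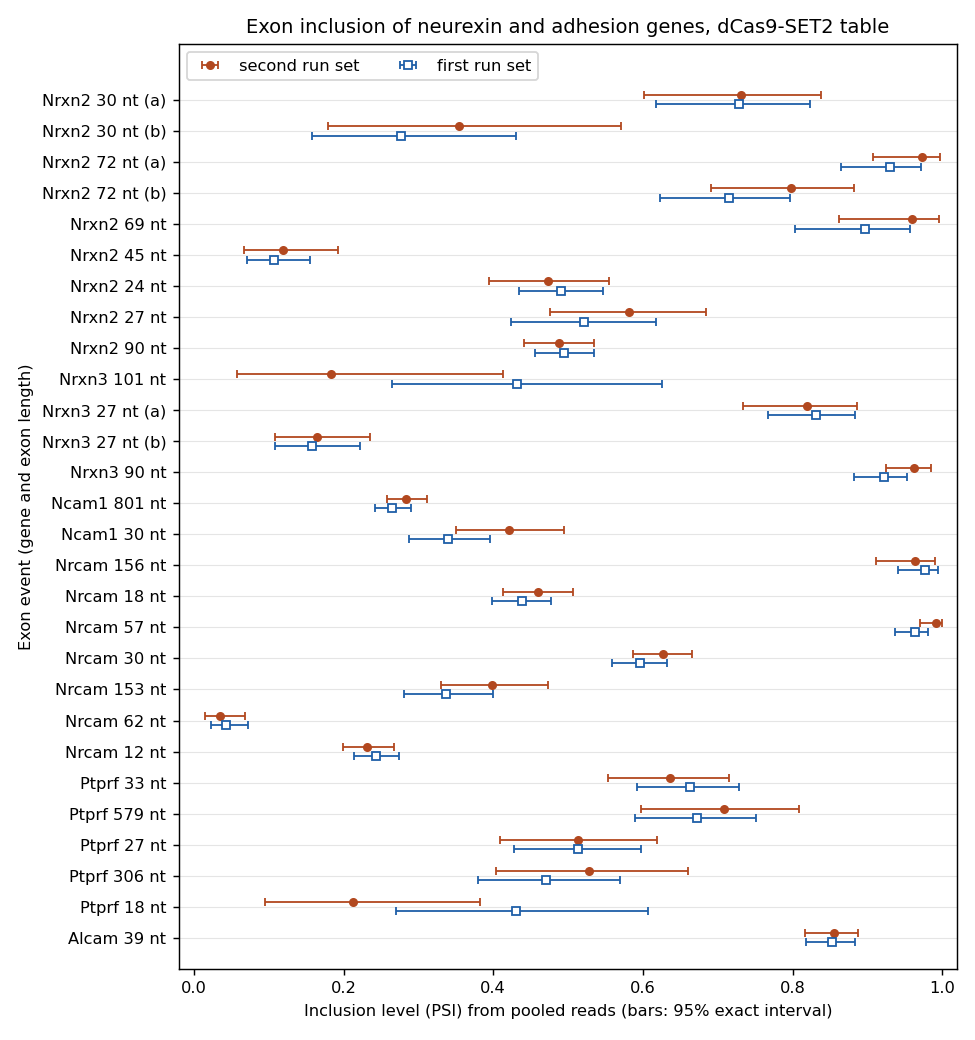
Inclusion level (PSI, x axis) from pooled reads of the 28 member events in the dCas9-SET2 table (y axis), with filled points for the second and open squares for the first run set of 16 runs each and bars for the 95% exact interval. The 2 intervals overlap in every event, and (a) and (b) are 2 exons of the same length or the same exon with other neighbours.

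Exons were matched between the tables by gene, strand, exon length and the lengths of both neighbouring introns, since the coordinates of the HSV table are not those of GRCm38. This matched 25 events, 24 of them tested in the HSV table, and left 3 events of the dCas9-SET2 table unmatched. Inclusion over all reads of a table ran in parallel across the 24 exons, with a Pearson correlation of 0.829 and a Spearman correlation of 0.831. The exons are of 6 genes and share libraries, so this is a description.

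In 4 of the 24, the 2 tables differed by at least 0.2 in pooled inclusion: the 579-nt, 306-nt and 27-nt exons of Ptprf and the 801-nt exon of Ncam1. The 579-nt exon of Ptprf had 0.685 over the dCas9-SET2 table and 0.298 over the HSV table. For its 27-nt exon, the order was the opposite, 0.513 over the dCas9-SET2 table and 0.806 over the HSV table. The 2 tables also differ in form lengths and depth, and the part of these was not tested.

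The sign of the difference between sets was the same in both tables for 12 of the 24 matched events and for 2 of the 5 called in the HSV table. The median absolute difference was 0.0239 in the dCas9-SET2 table and 0.0865 in the HSV table. The 39-nt exon of Alcam, at chr16:52268790-52268828 on the minus strand, had 0.855 (0.816 to 0.888) in the second run set and 0.853 (0.818 to 0.883) in the first, which is nearer to the 2-library set. Pooled inclusion in the dCas9-SET2 table lay nearer to the mean of the 2-library set in 4 of the 5 called events and in 12 of all 24. The exception among the 5 was the 27-nt exon of Nrxn3, at 0.826 over the dCas9-SET2 table, against means of 0.813 in the 3-library set and 0.977 in the 2-library set.

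**Figure D5:**
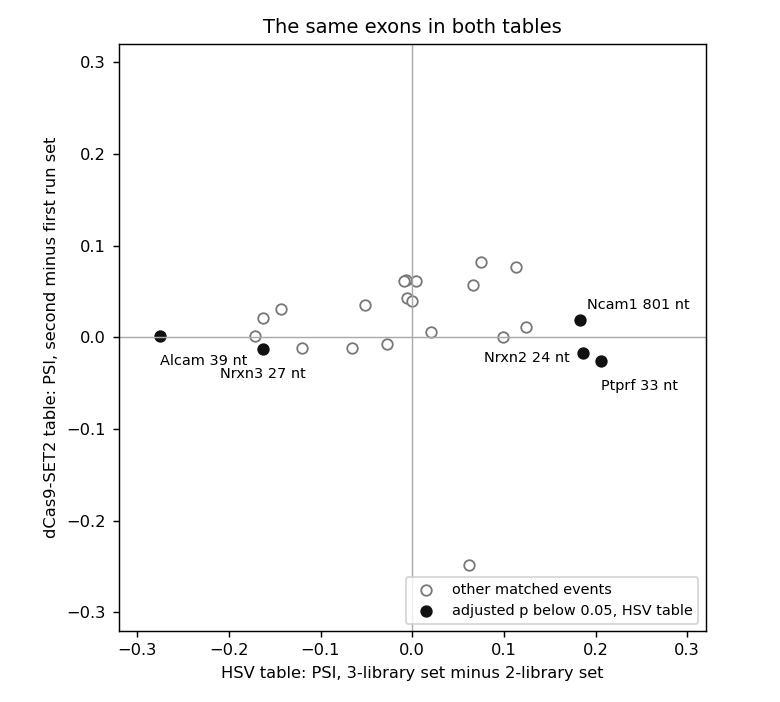
Difference in inclusion between the second and the first run set (y axis, PSI, dCas9-SET2 table) against that between the 3-library and the 2-library set (x axis, PSI, HSV table) for the 24 matched and tested events. Filled points are the 5 events called in the HSV table, which spread widely along x and stay near 0 along y, and the lowest point is the 101-nt exon of Nrxn3 with few reads.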

How the data were processed

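Exon skipping was read from 2 deposited tables made from RNA of mouse nucleus accumbens. STAR 2.4.1d and Bowtie2 are named, with no role, per the submitters' processing notes, as are mm9 and mm10; no source used here names the event caller. The deposited read counts and inclusion levels are joined in cells without sample names, so 5 libraries and 32 runs carry no sample, and the sets are compared as each table has them. The inclusion levels were recomputed within 0.001 in 100% of values, with form lengths of the exon plus 150 nt against 150 nt (HSV) and plus 99 nt (dCas9-SET2). The p-value, FDR and padj are the authors' deposited values, as are the difference scores; the deposited HSV difference is 2-library minus 3-library and is printed here the other way round. The sign of the deposited dPSI score was second minus first set in 89.3% of called events.

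Events with a mean of 20 reads per library and 10 of the rarer form were fitted with limma 3.58.1 (R 4.3.3) on logit inclusion (0.5 was added to the counts), weighted by reads, with 1 spread shared by all events. Calls rest on a Benjamini-Hochberg adjusted p of 0.05 over all tested events. Where 1 library of the 2-library set is left out, the other is assumed to vary like the 3-library set. Gene coverage was the deepest event of a gene, TMM-scaled (trims 0.3 and 0.05), as log2 of CPM with 0.5 count added, fitted by limma with a trend, which understates changes of thinly covered genes. The joined cells are not columns of counts, so there was no count model. Scripts were tested on simulated data. Of 9542 gene IDs in the HSV table, 9430 matched a symbol. Coordinates are 1-based; 99.8% of exons of the dCas9-SET2 table and 13.1% of the HSV table lay inside their gene on GRCm38, so HSV coordinates are not printed. In the dCas9-SET2 table, padj was missing in 321 events.

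Every event of the 6 genes is accounted for; described per library are tested events with a mean inclusion of 0.05 to 0.95 or a call, and of the other adhesion genes those with a call. The members and lists were chosen with earlier results of these data known. Alternatives were other spreads, weights, read minimums, added counts, scalings, each library left out, and the authors' FDR. Of the other adhesion genes in the dCas9-SET2 table, not every result is reported here.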

Additional observations from a re-analysis of the deposited data

How the results depend on the processing

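The count of called member events, 5 by limma, was 2 with the spread as a trend on the weights, which was chosen after seeing the data, 11 by the FDR of the authors' deposited table, and 1 to 7 without each library in turn. It was 0 by limma without weights, where 4 member events had an unadjusted p below 0.05 and 0 of all 7754 events were called. The count of called genes in the list of other adhesion genes, 4 by limma, was 12 by the authors' deposited FDR, 2 to 5 without each library, and 0 by limma without weights, where 10 genes had an event at an unadjusted p below 0.05. The 1 call of the dCas9-SET2 table was 0 at an adjusted p of 0.01 in the authors' deposited table. The count of genes with called coverage, 4, was 3 to 4 without each library, and scaling moved the median of all genes by at most 0.03 on the log2 scale. Over the settings run, the 5 called events and the 6 coverage differences kept their direction. Of the logit differences of tested member events, 292 kept direction and side of the threshold, 16 lost the threshold, 3 gained it and 21 reversed; for coverage, 55 kept it, 4 lost it and 1 gained it. The reversals were in 12 events called in no setting, whose lowest adjusted p was 0.325 by limma; the cause was not tested. Without weights, the logit difference became 0.0898 for the Nrxn3 706-nt exon and -0.21 for the Nrxn2 72-nt exon next to the 30-nt exon. Without each library in turn, the logit difference ran from -1.19 to 0.53 for that 72-nt exon and from -0.22 to 0.85 for it with a more distant neighbour. In Nrxn2 it also ran from -0.67 to 0.51 (69 nt), -0.36 to 1.89 (30 nt, distant neighbour), -0.14 to 0.0824 (27 nt) and -0.30 to 0.0179 (90 nt). In Nrxn3 it ran from -0.35 to 0.42 (706 nt), -0.0386 to 0.49 (101 nt) and -0.22 to 0.40 (90 nt), and in Nrcam from -0.13 to 0.18 (153 nt after the 36-nt exon). In Ptprf it ran from -0.20 to 1.14 (27 nt) and -0.58 to 0.0830 (579 nt). In the dCas9-SET2 table, 7 of 28 pooled differences, none above 0.0612 in size, had the opposite sign by the mean or the median over runs, and the called Nrcam exon was not among them. Depth limits what can be seen: a tested member event had 24.2 to 823 reads on average in an HSV library, and 16 to 1302 pooled reads in the second run set and 33 to 1475 in the first. A missed threshold does not show equal inclusion. No paired analysis was possible because the columns carry no replicate numbers.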

Other observations

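Among the other adhesion genes, 2 of 94 events passed 0.05 in the authors' deposited table for dCas9-SET2. That is no more than in the table at large, where 4.96% of events did. Among them was a 27-nt exon of Tenm3, a teneurin. Its pooled inclusion was 0.691 in the second run set (54 inclusion and 19 skipping reads) and 0.784 in the first (83 and 18 reads). The authors' deposited table gave it an adjusted p of 0.0458 and a dPSI of -0.232, which was larger in size than the pooled difference.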
